A study of Caenorhabditis elegans with 2 samples.

Results

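The strongest promoter regions of Caenorhabditis elegans autosomes in a ChIP-seq experiment on the transcription factor SOX-4 are described here, leaving out those next to a structural RNA gene. They were chosen by their signal value, a score of strength that the peak calling gave each region against a control alignment, and by position. A region was taken if its signal in the list made from both libraries pooled was 100 or more, if it lay on one of the 5 autosomes, and if its summit lay from 500 bp upstream to 100 bp downstream of the annotated 5' end of a protein-coding gene. Regions with a summit within 200 bp of a tRNA, snRNA, snoRNA, rRNA or miRNA gene were left out. This left 346 of the 30000 listed regions, and of the 1507 regions at a signal of 100 or more. Because signal chose them, their signal values are given as a description and were not tested. The comparison set was the 3205 weaker regions of the same list, with a signal under 100, that met the same position rules. The DNA came from whole late embryos of mixed sex of strain OP517 (unc-119(tm4063) III; wgIs517), collected 4 hours after synchronization by bleaching. Its transgene encodes SOX-4 fused at the C terminus to GFP and FLAG, and bound DNA was recovered with an antibody against GFP according to the descriptions of the libraries, although their antibody field reads sox-4. There was 1 group with 2 biological replicates, and worms lacking the tagged SOX-4 were not analysed here, so signal that does not depend on the tagged protein cannot be told apart from signal that does. Whole embryos mix all cell types. Read counts are not part of the lists, which leaves the sequencing depth unknown.

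SOX proteins carry an HMG box, which contacts the minor groove of DNA and bends it, and their usual core sequence is ACAAAG or ACAATG. They are known as regulators of cell fate in many animals. The genome of C. elegans is compact: neighbouring genes on opposite strands often share a short upstream region, from which they are transcribed away from each other, and many genes on the same strand form operons transcribed from a promoter ahead of the first gene. Many transcripts are trans-spliced, so that an annotated 5' end often marks the splice site of the leader and lies downstream of the start of transcription.

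The sequence within 50 bp of the summit was not used to choose the regions. The 5 words of 6 letters that most separated these regions from the weaker ones were GCGCAC and the overlapping word CGCACG, then CGCAAG and the overlapping word GCAAGC, and the palindrome TTGCAA, each read on both strands. To show how the words sit in strong regions, the windows of the 6 strongest regions on chromosomes II to V that hold GCGCAC are given and, as the last pair of lines, those of the 2 strongest there that do not, with sequence from the RefSeq copy of WBcel235 (ce11), plus strand, 5' to 3'. Capitals mark every match to the 5 words or their reverse complements.
atx-2, chrIII:10461269-10461369: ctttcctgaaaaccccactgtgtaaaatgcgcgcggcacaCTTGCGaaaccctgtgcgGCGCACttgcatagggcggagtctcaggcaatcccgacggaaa
rpl-3, chrIII:3867518-3867618: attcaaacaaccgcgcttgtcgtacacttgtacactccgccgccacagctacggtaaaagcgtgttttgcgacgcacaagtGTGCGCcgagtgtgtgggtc
nmad-1, chrIII:5555091-5555191: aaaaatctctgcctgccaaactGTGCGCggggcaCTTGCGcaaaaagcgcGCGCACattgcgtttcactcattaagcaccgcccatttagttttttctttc
B0495.9, chrII:7708741-7708841: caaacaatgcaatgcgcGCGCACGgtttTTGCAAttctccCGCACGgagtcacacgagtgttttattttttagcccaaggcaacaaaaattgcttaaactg
sas-5, chrV:11610639-11610739: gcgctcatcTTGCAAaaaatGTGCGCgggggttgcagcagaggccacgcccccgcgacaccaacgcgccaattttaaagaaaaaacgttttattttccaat
krr-1, chrV:7231021-7231121: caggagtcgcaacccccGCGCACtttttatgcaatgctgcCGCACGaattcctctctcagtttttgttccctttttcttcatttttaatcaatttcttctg
ears-2, chrIV:390451-390551: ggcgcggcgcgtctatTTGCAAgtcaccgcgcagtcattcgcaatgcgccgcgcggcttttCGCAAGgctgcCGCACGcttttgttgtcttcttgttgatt
idhg-1, chrIII:4568685-4568785: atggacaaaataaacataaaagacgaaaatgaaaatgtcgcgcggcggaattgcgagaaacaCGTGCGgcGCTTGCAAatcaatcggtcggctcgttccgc
The windows of ears-2 and idhg-1 lack GCGCAC but hold 3 of the other 4 words each. The window of nmad-1 holds GCGCAC on each strand with CGCAAG, read as CTTGCG on the plus strand, between the matches.

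GCGCAC was present in 71 of the 346 windows, 20.5% (95% Wilson interval 16.6 to 25.1), and in 128 of the 3205 weaker promoter windows, 3.99% (3.37 to 4.73). CGCAAG stood at 15.6% (12.2 to 19.8) against 2.84% (2.32 to 3.47), and CGCACG at 14.2% (10.9 to 18.2) against 2.18% (1.73 to 2.75). TTGCAA, which is its own reverse complement, stood at 17.3% (13.7 to 21.7) against 4.84% (4.15 to 5.63), and GCAAGC at 15.9% (12.4 to 20.1) against 3.09% (2.54 to 3.75). In the windows of all 17242 autosomal protein-coding promoters, centred 179 bp upstream of the 5' end, the 5 words stood, in the same order, at 2.22%, 1.68%, 1.29%, 5.28% and 2.11%. At equal GC content the odds ratios of the strongest against the weaker regions were 4.26 for GCGCAC, 4.96 for CGCAAG, 5.24 for CGCACG, 4.26 for TTGCAA and 4.51 for GCAAGC. The adjusted p were 8.10e-17, 4.21e-16, 1.36e-15, 2.81e-15 and 1.53e-14 in that order (Cochran-Mantel-Haenszel chi-squared test over 10 strata of GC content). These words overlap, since GCGCAC and CGCACG share 5 letters and CGCAAG and GCAAGC share GCAAG, so they are not separate results. GCGCAC and CGCACG occurred together in 20 of the windows, CGCAAG and GCAAGC in 21, and CGCACG and TTGCAA, which share no such run, in 20. Any of the 5 was present in 172 windows (49.7%, 44.5 to 54.95), against 13.6% of weaker promoter windows and 10.7% of all promoter windows. The joint share is a description, because the words were picked on the same contrast.

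Of all 2080 words of 6 letters, counted with their reverse complements, 106 (5.10%) were more frequent at the strongest regions and 8 (0.385%) less frequent at an adjusted p under 0.05 (Benjamini-Hochberg over all 2080), and 327 had an unadjusted p under 0.05. The dinucleotide CG occurred in 69 of the 106 (65.1%), and in 604 of all 2080 (29.0%). None of the 8 less frequent words held CG. Words of A and T alone made up another 6 of the 106, and 36 of all 2080. Among the 6 was TTTTTT. It was in 33.5% of the strongest and 36.5% of the weaker windows, but at equal GC content its odds ratio was 1.84 (adjusted p = 0.000171, same chi-squared test). Its direction thus turns with the GC strata, and it is 1 of 5 such words among the 106. The 5 less frequent words with the smallest p were CTCCAG in 4 windows, GCTGGA in 3 windows, CAGGAG in 3 windows, TCACCA in 4 windows and CTGAAG in 3 windows of the 346, against 3.31% to 4.65% of the weaker ones (odds ratios 0.148 to 0.223, adjusted p 0.00986 to 0.0353 in the chi-squared test). GCTGGA was in 0.867% against 4.65%. These calls were lost without replicate 2, with a minimum signal of 130 and with 25 bp to either side of the summit, where 0 words were called less frequent. The sequence windows had 47.3% GC (SD 8.62 over 346 windows) at the strongest regions and 40.6% (SD 9.31) at the weaker ones. The p-values treat regions as the unit, and they describe these 2 libraries, not the spread between further samples.

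**Figure D1:**
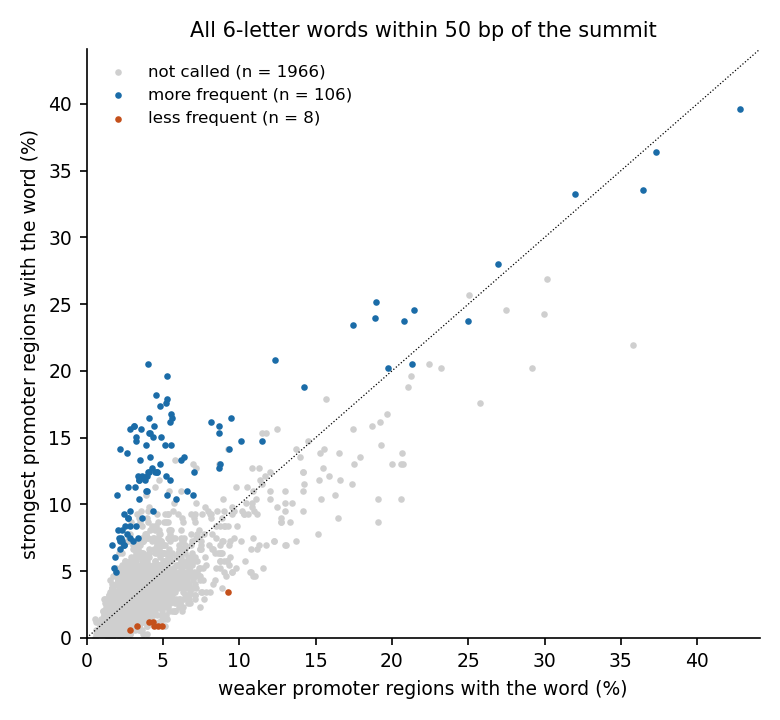
Share of windows within 50 bp of the summit that hold each of the 2080 words of 6 letters, in the 3205 weaker (x axis, %) and the 346 strongest promoter regions (y axis, %), with the 106 words called more frequent in blue and the 8 called less frequent in orange. Most of the blue words stand at under 10% in the weaker and above the dotted line of equal shares, while a few common words lie on or under that line and were called only at equal GC content.

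Neither SOX core form passed the test. ACAATG was in 5.49% of the strongest windows (3.54 to 8.42), 5.06% of the weaker (4.35 to 5.87) and 5.89% of all promoter windows, with an odds ratio of 1.23 (adjusted p = 0.851, Cochran-Mantel-Haenszel chi-squared test). ACAAAG was in 4.62% (2.87 to 7.38), 5.68% (4.93 to 6.53) and 6.13%, with an odds ratio of 1.01 (adjusted p = 1 in the chi-squared test). A missing word says only that these letters were not in the window. Of the other words searched on both strands, GGGCGG, the core of the SP1/KLF box, was in 16.2% against 5.46% and 2.37% of all promoter windows (odds ratio 1.92, chi-squared test, adjusted p = 0.00446). CGCACA was in 18.2% against 4.52% and 2.77% (odds ratio 3.41, chi-squared test, adjusted p = 3.85e-11), and it shares 5 letters with CGCACG and GCGCAC. The word CTGCGT, in 11.8% against 4.74% and 3.13%, missed the threshold (odds ratio 1.77, chi-squared test, adjusted p = 0.0589). TATAAA (5.78% against 9.17% and 13.1%), the 3' splice site form TTTCAG (11.6% against 17.4% and 16.7%), the GATA form TGATAA (3.18% against 5.49% and 11.4%) and GAGAGA (15.3% against 11.8% and 7.63%) had odds ratios from 0.897 to 1.05 and adjusted p of 0.911 or 1 in the chi-squared test. TTTTTT stood at 46.4% of all promoter windows.

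The distance of the words from the summit was compared between the strongest and the weaker regions. CGCAAG lay within 20 bp of the summit in 63.6% of its 55 occurrences at the strongest regions and in 41.8% of 91 at the weaker ones. TTGCAA did so in 62.7% of 75 against 44.9% of 165, and GCAAGC in 60.3% of 58 against 38.6%. GCGCAC lay that close in 44.6% of 83 occurrences and in 44.4% of 142, and CGCACG in 49.1% of 53 and 43.8% of 73. GCGCAC stood on the strand of the nearest gene in 50.6% of its occurrences at the strongest regions and 58.45% at the weaker ones. These shares were 45.3% and 53.4% for CGCACG, 38.2% and 52.75% for CGCAAG, and 34.5% and 47.5% for GCAAGC. G preceded CGCAAG in 65.5% of its occurrences at the strongest regions and T stood before that position in 61.1%. The most frequent letters at the 4 positions after it reached 29.1% to 36.4%. No shares of these letters at the weaker regions are given. These positions were not tested.

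Words of 8 letters were then counted in the same windows, a step chosen after the 6-letter words were seen. Of 32896 words, 136 passed the same test, all more frequent at the strongest regions. The chi-squared test is approximate for rare words, so 136 is a rough count. ATGCGCTA, for one, passed with 4 of the strongest windows and 0 weaker ones. Of the 136, 31 contained one of the 5 leading words, a share not counted over all 32896. The word with the smallest p was CTTGCGCA, whose reverse complement contains CGCAAG, in 22 of the 346 windows (6.36%) and 7 of the 3205 weaker ones (0.218%). AAGTGCGC, which reads GCGCAC on the other strand, was in 30 windows of each set (8.67% and 0.936%). GCGCCAGC, which contains none of the 5, was in 26 (7.51%) and 22 (0.686%), GCGCAAGC in 17 and 11, and CTTGCAAA in 19 and 13. The 22 regions with CTTGCGCA were led by nmad-1, mrck-1, pdhk-2, ddp-1 and smr-1, with signals of 502, 284, 264, 248 and 241. At divergent promoters were 10 of the 22, and 139 of all 346 (40.2%). With 22 regions this cannot tell whether the word goes with arrangement, and no test was made.

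Because the 5 words were picked for separating regions on either side of a signal of 100, a step there is built in. The share of promoter windows with any of the 5 words was higher at higher signal, also among the 346. It was 12.9% at a signal under 50, 12.2% from 50 to 75 and 20.5% from 75 to 100, below the threshold. Above it, the share was 38.0% from 100 to 130 (171 regions), 50.9% from 130 to 200 (110 regions) and 78.5% from 200 (65 regions, 67.03 to 86.71). Mean GC content in the same 6 bins rose from 39.1% to 49.4%, so composition moved with the words, and the words were not tested within bins. The regions with any of the words had a median signal of 85.8 in replicate 1 and 70.0 in replicate 2, and the regions without them 70.3 and 56.8. Of the regions with the words, 65.7% (58.3 to 72.4) were among the strongest 1507 regions of both replicates, and of those without, 43.1% (36.0 to 50.5). The replicate lists come from the same reads as the pooled signal, so these values are descriptions and no separate support. Strong regions outside this set had the words in other shares: 18.7% of the 595 autosomal regions at a signal of 100 or more outside promoters, with 49.5% GC, and 40.3% (29.4 to 52.3) of the 67 promoter regions of the X chromosome, with 52.5% GC. On X, GCGCAC was in 29.9% (20.2 to 41.7) and GCAAGC in 4.48% (1.53 to 12.4), against 20.5% and 15.9% at the autosomal promoters. The difference between X and the autosomes was not tested.

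**Figure D2:**
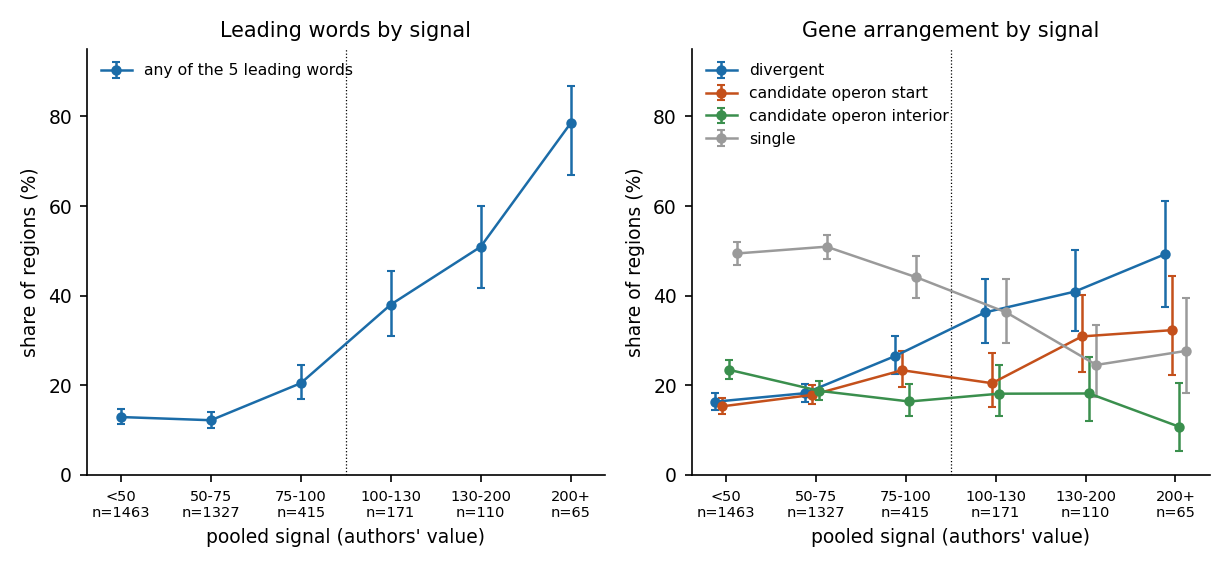
Share of autosomal promoter regions (%, with 95% Wilson intervals) in 6 bins of pooled signal, the 3 bins right of the dotted line being the strongest regions. Left, regions with any of the 5 leading words, which reached 78.5% in the top bin. Right, regions at divergent promoters, candidate operon starts, candidate operon interiors and single promoters, with the divergent share above the single share in the top 2 bins.

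The lists were compared for the regions' standing in each replicate. All 346 regions overlapped a region of the replicate 1 list by 1 bp or more, and 340 (98.3%) one of the replicate 2 list, each list holding 30000 regions. Of the weaker promoter regions, 77.3% overlapped one of the replicate 1 list and 73.7% one of the replicate 2 list. Among the strongest 1507 of each list, as many as the pooled list has at a signal of 100 or more, stood 265 of the 346 (76.6%) in replicate 1, 244 (70.5%) in replicate 2 and 188 (54.3%, 49.1 to 59.5) in both. The deposited thresholded list of 668 peaks, with a lowest signal of 129.9, overlapped 176 of the 346 (50.9%, 45.6 to 56.1). Of the 346, 175 had a pooled signal of 130 or more, so this overlap largely restates the signal that chose the regions. The median signal was 131 in the pooled list (quartiles 111 and 184, range 100.1 to 712), 75.9 in replicate 1 (61.5 and 104) and 63.2 in replicate 2 (48.8 and 84.4). These values were not scaled between libraries. The pooled list is built from the same reads as the replicate lists and its signal chose the regions, so the Spearman rho of 0.52 between replicates over the 340 regions is a description only. Where several replicate regions overlapped, the strongest was used, so that dnj-29 and ndua-2 share a region in both replicates and the 2 regions at W01D2.3 share one in replicate 2.

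**Figure D3:**
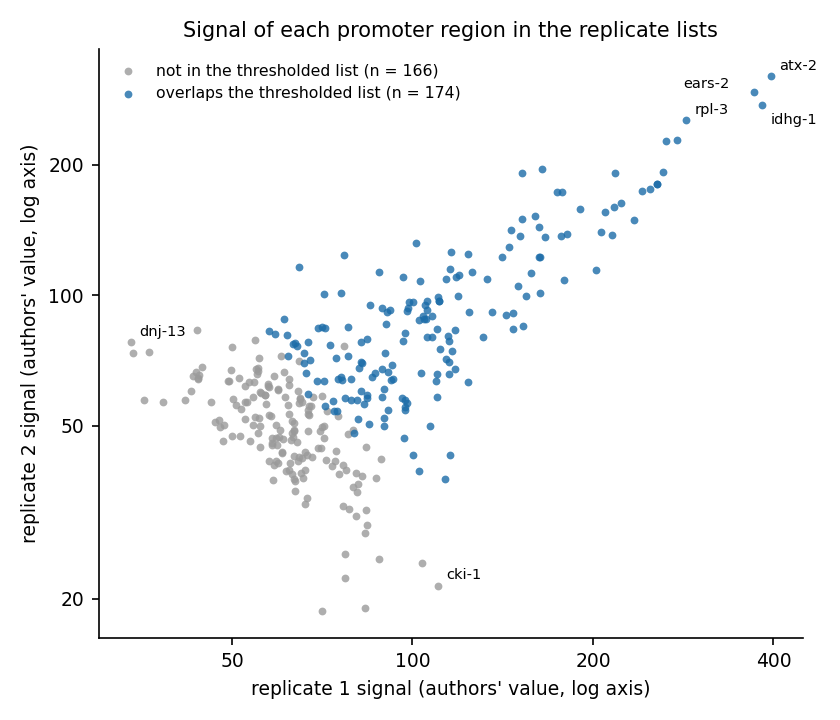
Signal of the 340 regions found in both replicate lists (x axis, replicate 1, and y axis, replicate 2, both on log axes, the peak caller's own values), with the 174 that overlap the thresholded list in blue. The strongest 4, atx-2, ears-2, idhg-1 and rpl-3, lie together at the upper right, and cki-1 and dnj-13 are far from the rest in opposite directions.

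The strongest region, at atx-2 (chromosome III, 10461156 to 10461475), the gene of the RNA-binding protein ataxin-2, had a signal of 712, 396 in replicate 1 and 320.0 in replicate 2, with its summit 70 bp upstream of the 5' end. The second (IV, 390357 to 390627) had 663, 372 and 294 and lay between the 5' ends, 92 bp apart, of ears-2, a mitochondrial glutamyl-tRNA synthetase, and uncp-18, a homologue of syntaxin-binding proteins. The third (III, 4568614 to 4568874), at idhg-1, a subunit of mitochondrial isocitrate dehydrogenase, had 653, 383 and 274. In both replicates these 3 held ranks 9 to 17 of 30000. The fourth, at rpl-3, a protein of the large ribosomal subunit (III, 3867441 to 3867721), had 536, 286 and 253, with its summit 286 bp upstream. The fifth lay between nmad-1, named for a DNA N6-methyl adenine demethylase, and hach-1, a mitochondrial hydrolase (III, 5554991 to 5555245), with 502, 276 and 228. Ranks 6 to 15 in pooled signal, from 491 to 368, were held by the regions at spe-48, the protease homologue tasp-1, dnj-29 (a J domain protein) with the complex I subunit gene ndua-2, C16C10.4 with the ubiquitin ligase gene rnf-121, B0495.9, W01D2.3, F39G3.3, the centriole assembly gene sas-5, C46F11.4 and the translation initiation factor gene eif-3.C. Their signals were 210 to 265 in replicate 1 and 149 to 226 in replicate 2, so all 10 were below rpl-3 in both. Each of the 15 was among the strongest 111 regions of both replicates.

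The regions with the largest ratios of rank between replicates are given next. The cell cycle inhibitor gene cki-1 (pooled signal 119) had 110 in replicate 1, rank 279, and 21.4 in replicate 2, rank 22082. The regions at wdr-46 (83.2 and 19.1) and at the cohesin loader gene mau-2 (104 and 24.2) were next in that direction. In the other direction, the regions at dnj-13 had 33.9 and 77.9, at eif-3.E 34.2 and 73.7, and at lgg-1, an autophagy protein of the ATG8 family, 36.3 and 74.2. The 6 regions with no counterpart in the replicate 2 list lay at ubr-4, pak-2, C01G10.7, nol-10, cept-2 and dnbp-1, with signals in replicate 1 from 47.6 to 95.2. The last regions inside the threshold were at W01B6.8 (100.5), nbet-1 (100.2) and dnbp-1 (100.1), and the first outside at Y37B11A.3 (99.96), W02H5.19 (99.9) and znf-782 (99.6). In replicate 1 the first of these pairs, W01B6.8 and Y37B11A.3, had 53.6 and 36.9, and in replicate 2 it had 46.2 and 60.0, so the replicates order it differently.

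The summits were more concentrated upstream of the 5' end, and a smaller share lay inside genes, than those of weaker promoter regions. The median was 179 bp upstream of the nearest 5' end (quartiles 78 and 266) against 148 bp (23 and 298). Summits from 100 to 300 bp upstream made up 48.8% (43.6 to 54.1) of the strongest and 34.1% (32.5 to 35.8) of the weaker regions. Downstream of the 5' end lay 27 summits (7.80%, 5.42 to 11.1) against 20.7% (19.3 to 22.1), and inside any protein-coding gene 50 (14.5%, 11.1 to 18.6) against 36.3% (34.7 to 38.0). The windows of 2 or more genes took in 110 summits (31.8%, 27.1 to 36.9) against 11.0% (9.98 to 12.1). These shares were not tested.

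**Figure D4:**
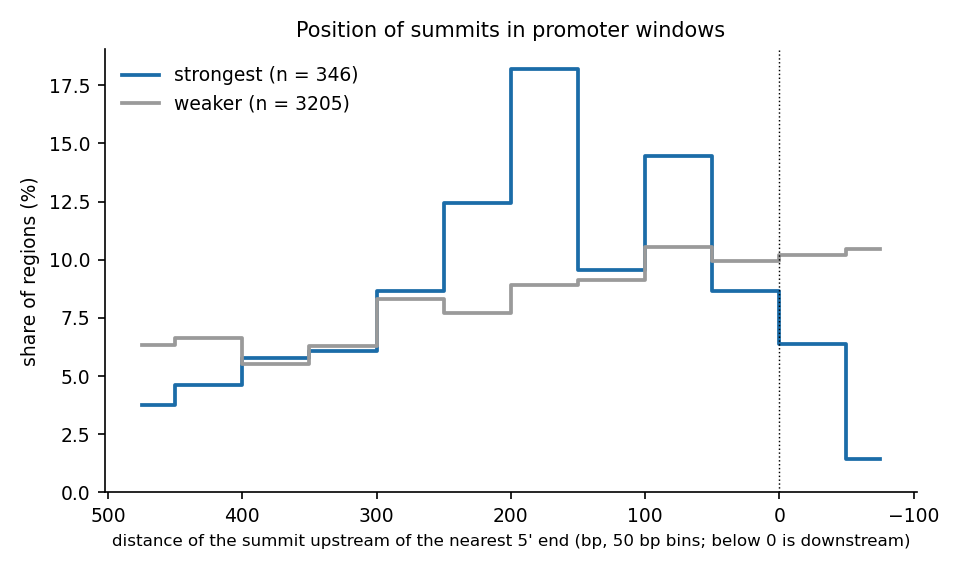
Share of regions (%) by distance of the summit upstream of the nearest annotated 5' end (bp, 50 bp bins, downstream to the right of the dotted line), for the 346 strongest (blue) and the 3205 weaker promoter regions (grey). The strongest regions have their highest bin, 18.2%, from 150 to 200 bp upstream and fall to 1.45% in the bin furthest downstream, where the weaker regions stand at 10.4%.

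Gene arrangement, which the choice did not use, differed between the strongest and the weaker regions. A promoter was called divergent where the nearest 5' end on the opposite strand, facing away, lay within 1000 bp of that of the nearest gene. The annotation used holds no operons, so candidate operons were runs of genes on the same strand with gaps of at most 500 bp, and the nearest gene was a candidate start or interior gene of such a run. Divergent promoters held 139 of the 346 regions (40.2%, 35.1 to 45.4) and 591 of the 3205 weaker ones (18.4%, 17.1 to 19.8), an odds ratio of 3.13 at equal GC content (Cochran-Mantel-Haenszel chi-squared test, adjusted p = 2.00e-20 over the 4 classes). Candidate operon starts held 90 (26.0%, 21.7 to 30.9) against 17.4%, an odds ratio of 1.65 (chi-squared test, adjusted p = 0.000378). Candidate operon interiors held 58 (16.8%, 13.2 to 21.1) against 20.6%, an odds ratio of 0.874 that did not pass (chi-squared test, adjusted p = 0.423). It passed the chi-squared test, as lower, without replicate 1 (0.674, adjusted p = 0.0188) and with gaps of 250 bp (0.462, adjusted p = 0.00103) or 1000 bp (0.715, adjusted p = 0.0166). Single promoters, with none of these neighbours, held 107 (30.9%, 26.3 to 36.0) against 49.4%, an odds ratio of 0.415 (chi-squared test, adjusted p = 2.35e-12). Single promoters are never divergent by definition, and 0 of the 346 and 6 of the 3205 regions were both divergent and interior. A higher share of divergent regions thus lowers the shares of both classes, and their calls are not separate results. Of all autosomal protein-coding genes, 19.6% were divergent, 14.95% candidate starts, 21.2% interior and 49.7% single, so the weaker regions stood near the genes in general.

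Divergent promoters and operon starts overlapped as classes, with 48 regions in both, 91 divergent only and 42 operon starts only. Regions in both classes made up 13.9% of the strongest and 5.62% of the weaker regions. Operon starts only stood at 12.1% against 11.8%, and divergent only at 26.3% against 12.6%. These shares are of all regions of each set, and more of the strongest were divergent. Outside divergent promoters, the strongest regions were 42 operon starts, 58 interiors and 107 single, and the weaker ones 378, 654 and 1582. Operon starts were not tested within divergent or other regions alone, and the classes are not separate results. The 139 divergent regions lay at 138 gene pairs, since the pair dnj-29 and ndua-2 had 2. Their 5' ends were a median of 452 bp apart (quartiles 320.5 and 657) against 473 bp (269.5 and 710) for weaker divergent regions. The summit lay between the 5' ends in 88.5% against 64.1%, and in the promoter windows of both genes in 103 (74.1%) against 55.8%. Where it lay between them, it stood at a median of 32.6% of the gap from the nearer gene (quartiles 19.6% and 42.1%).

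Strength and words were described by class. The median signal was 133 at divergent-only promoters (75.9 in replicate 1 and 66.2 in replicate 2), 150 at divergent promoters that were also operon starts (88.4 and 68.0), 145 at other operon starts (78.9 and 67.8), 128 at operon interiors (76.0 and 59.6) and 121 at single promoters (70.4 and 56.6). Single promoters were lowest in all 3 lists, and the quartile ranges of all classes overlapped. The thresholded list overlapped 53.8%, 60.4%, 61.9%, 46.6% and 42.1% of these classes in the same order. Any of the 5 words was in 58.2% (47.98 to 67.84) of divergent-only regions, 54.2% (40.3 to 67.4) of divergent operon starts, 52.4% (37.7 to 66.6) of other operon starts, 46.6% (34.3 to 59.2) of operon interiors and 41.1% (32.3 to 50.6) of single promoters. The same classes of weaker regions had 19.5%, 17.2%, 16.7%, 9.02% and 12.9%. Of the 5 words, TTGCAA differed most, at 27.5% of divergent-only and 8.41% of single promoter regions. For the others these shares were 25.3% and 18.7% (GCGCAC), 17.6% and 11.2% (CGCAAG), 15.4% and 11.2% (CGCACG), and 15.4% and 15.9% (GCAAGC). The differences between classes within the 346 regions were not tested. For any of the 5 words, the intervals of all 5 classes overlap.

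The leading divergent regions were those of atx-2, ears-2, idhg-1 and nmad-1 given above. The leading candidate operon starts were tasp-1 (446, with 262 in replicate 1 and 192 in replicate 2), B0495.9 (415, 241 and 174), C46F11.4 (379, 217 and 160) and plrg-1, a splicing factor (348, 174 and 173). The leading regions at candidate operon interiors were eif-3.C (368, 210 and 156), R148.3 (346, 206 and 140), ddp-1, a mitochondrial import protein (248, 124 and 124), and smr-1 (241, 153 and 84.9). At single promoters they were rpl-3, W01D2.3 (407, 218 and 191), F39G3.3 (385, 234 and 149) and swsn-3, a subunit of the SWI/SNF chromatin remodelling complex (355, 215 and 137). Replicate 1 was above replicate 2 for all of these but ddp-1, and for plrg-1 and ddp-1 the values were nearly equal.

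The share of genes with one of these regions was highest in lists of general cell functions. Of 17242 autosomal protein-coding genes, 456 (2.64%) had a summit of the 346 in their promoter window, and 3696 had a promoter region of any strength, so 12.3% of those with a region had one of the strongest. Of 27 gene lists, 20 stood above 2.64% and 4 had no gene with a region. No list was tested, and a region between divergent genes counts for both of them. In the translation machinery, 17 of 78 cytosolic ribosomal protein genes had a region (21.8%, 14.1 to 32.2), led by rpl-3 and rpl-15 (pooled signals 536 and 347, the second with 190.5 and 158 in the replicates), as had 6 of 37 translation factor genes (16.2%), led by eif-3.C and iff-2 (368 and 178, the second with 89.1 and 93.6). Of 66 mitochondrial ribosomal protein genes, 3 had one (4.55%, 1.56 to 12.5), led by mrpl-39 and mrps-34 (165 and 131), and without replicate 1 the number was 5. Of 32 aminoacyl-tRNA synthetase genes 1 had a region, ears-2 (3.12%).

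In mitochondrial energy metabolism, 12 of 65 genes of the respiratory chain and ATP synthase had a region (18.5%, 10.9 to 29.6), led by ndua-2 and nuo-2 of complex I (436 and 218, the second with 131 and 80.3), and 3 of 19 of the citric acid cycle and pyruvate dehydrogenase (15.8%), led by idhg-1 and dlst-1 (653 and 168). In RNA processing, 6 of 29 genes of mRNA 3' end formation and decay (20.7%, 9.85 to 38.4) were led by ntl-2 of the CCR4-NOT complex and exos-8 of the exosome (pooled signals 184 and 146). In the replicates, ntl-2 had 103 and 87.7, and exos-8 had 78.1 and 72.5. Splicing factors and hnRNPs had 8 of 60 (13.3%), led by the Sm protein gene snr-1 and the helicase gene mog-5 (242 and 191), and nucleolar proteins 3 of 20, led by the fibrillarin gene fib-1 and nola-3 (141 and 110.5), a number that was 1 without replicate 1. RNA polymerase subunits and general factors had 4 of 46 (8.70%), led by rpac-19 and rpb-11 (188 and 175), and 2 without replicate 1.

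The nuclear pore and import list had 7 of 40 (17.5%, 8.74 to 31.9), led by npp-8, a nucleoporin, and ima-1, an importin alpha (307 and 217). In the replicates, npp-8 had 163 and 144, and ima-1 had 119 and 99.5. Chaperones had 9 of 60, led by dnj-29 and dnj-9 (436 and 191), and chromatin regulators 10 of 80 (12.5%), led by swsn-3 and lin-53, a histone-binding protein (355 and 154). Vesicle traffic had 7 of 102 (6.86%), led by snx-13, which shares its region with snr-1, and arf-6 (242 and 232). Cell cycle and DNA replication had 6 of 78 (7.69%), led by cdc-48.1 and cdk-9 (231 and 229), which are better known for protein extraction and for transcript elongation. The ubiquitin list had 5 of 75 (6.67%), led by cdc-48.1 and ubxn-2 (231 and 132). Autophagy had 2 of 22, atg-18 and lgg-1 (241 and 111), the proteasome 2 of 33, rpn-3 and rpn-11 (146 and 126), and the vacuolar ATPase 1 of 17, vha-9 (108). With either replicate left out, the proteasome had 4 and the vacuolar ATPase 0, and autophagy had 1 without replicate 2. The intervals of the autophagy, proteasome and vacuolar ATPase lists, of mitochondrial ribosomal proteins and of synthetases reach below 2.64%, so they cannot be set apart from genes in general.

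Gene families with restricted expression had few regions or none. Chemoreceptor genes had 2 of 1267 (0.158%, 0.0433 to 0.574), sri-5 and srh-16 (288 and 169, with 179 and 90.6 in replicate 1 and 108 and 91.3 in replicate 2). The region of sri-5 lay in a window shared with rsr-1. C-type lectins had 1 of 237, clec-140 (101.5), in a window shared with hmg-11, and nuclear hormone receptors 2 of 246 (0.813%, 0.223 to 2.92), nhr-142 and nhr-47 (155 and 138). Collagen and cuticle genes had 0 of 149, which allows a share of up to 2.51% by the Wilson interval, neuropeptide and insulin genes 0 of 106 (up to 3.50%) and ceh homeobox genes 0 of 45 (up to 7.86%). Of these, the intervals of the hormone receptors, neuropeptides and homeobox genes reach 2.64%, the share of all genes, and those of the chemoreceptors, lectins and collagens do not. Without replicate 2, 3 neuropeptide and insulin genes had a region (2.83%), above the 2.45% of all genes at that setting. With either replicate left out, homeobox genes had 1 and lectins 0. The only autosomal gene of the SOX list, sem-2, had none. Other transcription factor families had 2 of 70 (2.86%), the cilium regulator gene daf-19 and hlh-11 (pooled signals 292 and 148, with 202 and 100.1 in replicate 1 and 114.6 and 42.9 in replicate 2), a share near that of all genes. Of the genes with a promoter region of any strength, one of the strongest was at 32.1% of 53 ribosomal protein genes and 33.3% of 36 respiratory chain genes, and at 4.00% of 50 chemoreceptor genes and 5.26% of 38 nuclear hormone receptor genes, against 12.3% over all. The shares of the chemoreceptors and hormone receptors rest on 2 genes each, too few to set these 2 lists apart from 12.3%. None of these shares was tested.

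**Figure D5:**
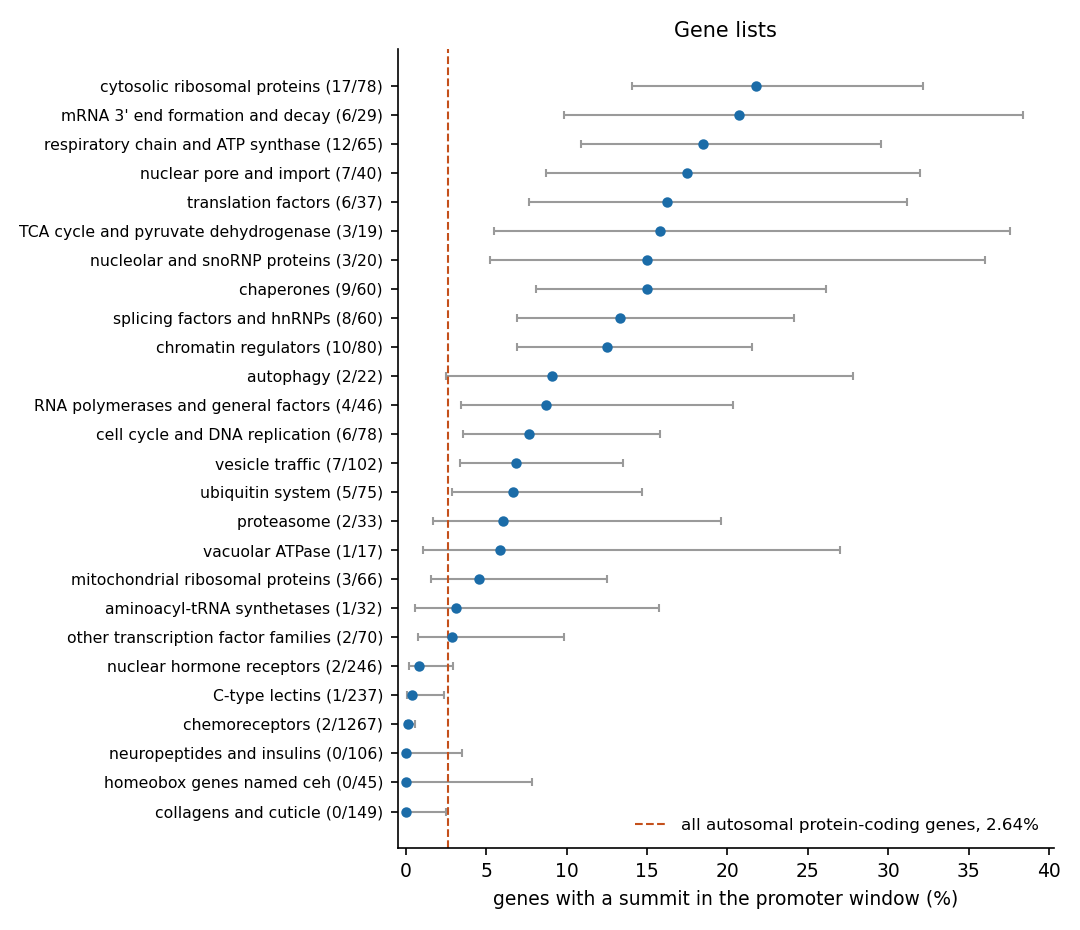
Share of the genes of each list with a summit of the 346 regions in the promoter window (%, points, with 95% Wilson intervals), with the number of genes in brackets and the share of all autosomal protein-coding genes, 2.64%, as the dashed line. Ribosomal protein genes stand highest at 21.8%, and chemoreceptors, C-type lectins and nuclear hormone receptors stand left of the line, as do the 3 plotted lists with no region.

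Over the chromosomes, the 346 regions followed neither the genes nor the weaker regions exactly. Chromosome I held 85 (24.6%, 20.3 to 29.4) against 21.4% of weaker regions and 16.7% of genes, and chromosome III 73 (21.1%) against 20.4% and 15.3%. Chromosome V held 59 (17.1%, 13.5 to 21.4) against 19.1% and 29.0%. Chromosome II held 68 (19.7%) and 22.5% of weaker regions, and chromosome IV 61 (17.6%) against 16.6% and 19.03%. With each chromosome cut into 3 equal lengths, the central ones held 34.4% (29.6 to 39.6) against 30.7% of weaker regions and 38.1% of genes. No test was made of these shares. The nearest genes of the 346 regions were 345, as W01D2.3 had 2.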

How the data were processed

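Anti-GFP ChIP-seq of 2 biological replicates of 1 group was analysed from lists of regions on ce11. Per the text deposited with each library, regions were called on each replicate's alignments and on both pooled, against a control alignment, and the thresholded list was made by the irreproducible discovery rate. For the aligner, the caller and the threshold, names and values are not given in the sources that were used. Signal is the authors' value for each region as deposited, and was used to rank regions within a list. Gene models were those of Ensembl release 115 (WBcel235, the same assembly), and product names and sequence came from RefSeq.

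Regions, windows and classes were as given above. For each window of 50 bp to either side of a summit, a word counted once if found on a strand. Sets were compared by the Cochran-Mantel-Haenszel chi-squared test (two-sided, with continuity correction) in 10 quantile strata of GC content. Benjamini-Hochberg adjustment ran over all 2080 words, or over the 4 arrangement classes, with a threshold of 0.05. The procedure was tested on simulated data. Gene lists were symbol patterns, some of which were corrected after their matches were read. The rule for named genes took the 15 strongest regions, the 2 strongest of each list, the 4 strongest of each class, the 3 with the largest rank ratio in each direction, the 3 on each side of the threshold and the 5 words with the smallest p in each direction. The members and lists were chosen with earlier results of these data known. Wilson intervals (95%) cover counting error over regions or genes only. Depth is unknown. The software was scipy 1.17.1, pandas 2.3.3 and numpy 2.4.6 in Python 3.11.15, with figures from matplotlib 3.10.9.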

Additional observations from a re-analysis of the deposited data

How the results depend on the processing

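The number of regions moved with the minimum signal, to 175 at 130 and 639 at 80, and stayed between 247 and 426 under the other promoter windows, structural RNA distances and counting rules. Without replicate 2 or without replicate 1, taking as many regions from the other list, it was 331 or 334. The 114 called words became 51 with 25 bp to either side of the summit, 186 with 100 bp (137 more and 49 less frequent) and 205 with 1 stratum in place of 10 (162 and 43), where composition enters the count. In the lists of 1 replicate it was 87 (all more frequent) and 114 (13 of them less frequent). Words called less frequent numbered 8 in the report and 0 with 25 bp, with a minimum of 130 or without replicate 2. The 5 leading words were called under all 9 alternatives for words of 6 letters. Without the 23 regions whose windows share 20 or more bases with another, an alternative chosen after seeing the data, as were the words of 8 letters, 100 words were called.

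Leaving out a replicate gave odds ratios of 2.76 and 3.31 for divergent promoters, 1.69 and 1.71 for operon starts and 0.424 and 0.450 for single promoters. Over the other settings they ranged from 2.78 to 3.41, from 1.62 to 2.19 and from 0.329 to 0.537, with no call lost. Operon interiors had 0.956 without replicate 2 and 0.674 without replicate 1, and passed as lower without replicate 1, with gaps of 250 bp (0.462) and with gaps of 1000 bp (0.715). With gaps of 500 bp few regions were both interior and divergent, so these classes are not separate results. The cause was not tested. The count of 20 gene lists above the share of all genes was 19 at a minimum of 130, and 20 and 19 in the lists of 1 replicate. No paired analysis was possible because there is 1 group. The absence of read counts, of an untagged control and of an annotation of operons limits these results.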
